A study of Mus musculus with 6 samples.

Results

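The unfolded protein response and the integrated stress response were followed here through 34 genes, chosen by gene symbol from 21399 genes listed in each library. They comprise 14 chaperones and folding enzymes of the endoplasmic reticulum (ER), 8 genes of ER-associated degradation and of the translocon, 4 sensor and transcription factor genes of the unfolded protein response, and ATF4 with 7 of its pathway targets (8 genes). RNA sequencing gave their levels in 3 mouse libraries labelled KO and 3 labelled WT. According to the design text, primary microglia from KO or WT mice carrying the CD45.2 allele went through oxygen and glucose deprivation, a cell model of ischaemia. They were then reoxygenated together with peritoneal macrophages of CD45.1 mice, and a population described both as CD45.1-positive and as microglia was sorted. All 6 libraries therefore share the culture steps and the sort, and no library from an undeprived culture was analysed here. The deprivation is described for the microglia, before the macrophages were added. Whether the sequenced cells were themselves deprived, or carried the KO or WT genotype, depends on which population was sorted. The design text does not settle which it was. The labels name neither the deleted gene nor the age or sex of the mice. They do not say that replicates are independent cultures or mice either, so each p-value weighs a difference against a spread that could be technical alone.

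The ER folds and glycosylates proteins that enter the secretory pathway. When unfolded proteins accumulate there, the membrane sensors IRE1, ATF6 and PERK are released from the chaperone BiP: IRE1 splices the Xbp1 mRNA, ATF6 is cleaved into a transcription factor, and PERK phosphorylates the translation factor eIF2α. Phosphorylated eIF2α slows translation in general and favours translation of ATF4, which activates amino acid metabolism, CHOP and the feedback phosphatase subunit GADD34. Other eIF2α kinases respond to amino acid shortage, double-stranded RNA or haem deficiency, so the ATF4 branch can be engaged without ER stress and is called the integrated stress response. B lineage cells depend on XBP1 when they become antibody-secreting cells, and macrophages transcribe Atf3 in response to microbial products and stress.

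The libraries held markers of several cell types. Levels are in FPKM, fragments scaled to gene length and to the mapped total, as deposited. Reads recovered from the FPKM steps summed to between 34267257 and 37137934 in KO-labelled libraries and to between 33506540 and 35596076 in WT-labelled libraries. Ppara, which encodes the receptor named in the series title, held 13, 23 and 10 reads in KO-labelled libraries and 11, 1 and 2 reads in WT-labelled libraries, which is at most 0.0588 FPKM. If Ppara is the deleted gene, these few reads were not lower in KO-labelled libraries and so do not bear the labels out. They do not show the labels to be wrong either, since the genotype belonged to the microglia and need not be that of the sorted cells. The libraries are therefore called KO-labelled and WT-labelled throughout. The summed level of 12 macrophage markers, led by Lyz2, Cd14 and Itgam, was 4535 to 10528 FPKM in KO-labelled libraries and 1262 to 3581 FPKM in WT-labelled libraries, and 11 of 12 markers had a positive difference. The summed level of 10 B cell markers was 4455 to 4849 FPKM in KO-labelled libraries and 5056 to 5722 FPKM in WT-labelled libraries, and all 10 markers had a negative difference. Of 10 T and NK cell markers 8 were tested and all 8 had a negative difference, 5 of them with groups that did not overlap (median log2 difference -0.37, lowest limma adjusted p = 0.12). The list summed to 343 to 385 FPKM in KO-labelled libraries and to 377 to 470.0 FPKM in WT-labelled libraries. Beside these marker counts, 35.4% of all tested genes had a positive difference and 15.2% separated downward. Of 10 microglia markers 9 were listed and 4 tested, 3 with a positive and 1 with a negative difference. Of the tested ones 2, Tmem119 and Olfml3, had groups that did not overlap, both higher in KO-labelled libraries (lowest limma adjusted p = 0.10). Over all tested genes 9.75% separated upward. The 9 listed markers summed to 99.6 to 113 FPKM in KO-labelled libraries and to 93.7 to 116 FPKM in WT-labelled libraries, so the sums overlapped. The defining marker P2ry12 had 0.457, 0.587 and 1.09 FPKM in KO-labelled libraries and 0.801, 0.585 and 0.268 FPKM in WT-labelled libraries, and Sall1 was at most 0.152 FPKM in any library. Mast cell markers summed to 69.6 to 304 FPKM in KO-labelled libraries and to between 7.14 and 375 FPKM in WT-labelled libraries. Ribosomal protein genes took 20.6% to 22.4% of all FPKM in KO-labelled libraries and 21.8% to 25.3% in WT-labelled libraries. In such bulk samples, fewer cells of a type and less RNA per cell cannot be told apart.

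The classical cis-element of this response is the ER stress response element, ERSE, which is bound by ATF6 together with the factor NF-Y and consists of CCAAT and CCACG with 9 bases between them. It was looked for on both strands of RefSeq promoters (GRCm38.p6, the assembly also called mm10), from 250 bases before to 50 after each annotated start, which are on file for 30 of the 34 genes. The letters were present for 9 of these 30 genes, against 37 of all 27025 genes with a promoter (0.137%) and 15 of 8604 tested genes (0.174%). The genes were chosen as members of the response whose classical element this is. A higher share among them therefore follows from the choice and is no separate result. The windows are printed because the genes that carry the same element lay on both sides of 0 in the comparison of the groups described further on. Each is shown 5′ to 3′ on the strand on which it reads CCAAT first, with 10 bases on either side and CCAAT and CCACG in capitals.
Calr: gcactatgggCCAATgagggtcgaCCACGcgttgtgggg
Canx: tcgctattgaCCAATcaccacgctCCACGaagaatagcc
Creld2: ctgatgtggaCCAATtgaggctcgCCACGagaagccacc
Derl3: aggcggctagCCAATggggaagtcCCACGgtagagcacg
Dnajc3: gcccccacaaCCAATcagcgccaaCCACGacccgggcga
Hsp90b1 distal: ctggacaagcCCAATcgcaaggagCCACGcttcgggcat
Hsp90b1 proximal: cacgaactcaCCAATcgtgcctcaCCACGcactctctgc
Hspa5: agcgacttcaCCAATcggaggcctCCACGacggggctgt
Pdia6: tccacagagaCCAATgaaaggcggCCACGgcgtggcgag
Syvn1: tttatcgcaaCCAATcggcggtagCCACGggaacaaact

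The windows lie in mm10 for Calr at chr8:84847065-84847103 on the plus strand, for Canx at chr11:50325790-50325828 on the minus strand, for Creld2 at chr15:88819510-88819548 on the minus strand, for Derl3 at chr10:75893232-75893270 on the minus strand, for Dnajc3 at chr14:118937817-118937855 on the plus strand.
The others lie for Hsp90b1 (distal) at chr10:86705628-86705666 on the minus strand, for Hsp90b1 (proximal) at chr10:86705523-86705561 on the plus strand, for Hspa5 at chr2:34772015-34772053 on the plus strand, for Pdia6 at chr12:17266481-17266519 on the plus strand, for Syvn1 at chr19:6046522-6046560 on the plus strand.
The related element ERSE-II, ATTGG and CCACG with 1 base between them, was found in Dnajb11 and Herpud1 among the 30 genes and in 12 of 27025 genes overall (0.0444%). The Herpud1 copy, with ATTGG and CCACG in capitals, lies at chr8:94386367-94386397 on the plus strand.
Herpud1: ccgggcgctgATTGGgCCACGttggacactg

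Counting the first transcribed base as 0, the ERSE copies began between 212 bases before the start (Hsp90b1, which has a pair) and 44 bases before it (Syvn1), and the Dnajb11 copy of ERSE-II lay after the start. The letters TGACGTGG, a site of XBP1 and ATF6 known as UPRE, occurred in 0 of 30 promoters and in 0.714% of all. The letters TGATGNAAT, a form of the C/EBP-ATF element through which ATF4 acts, occurred in 0 of 30 and in 1.08% of all. The palindrome TGACGTCA, the cyclic AMP response element bound by ATF family factors, occurred in Ppp1r15a and in 2.03% of all promoters. A match is a description of letters in this window and does not show binding.

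Across the libraries the 34 genes spanned a wide range of levels. FPKM is scaled by gene length, so levels can be set beside each other: Calr averaged 428 FPKM over the 6 libraries, rank 131 among all genes, and Asns 1.54 FPKM. All 34 passed the minimum mean of 1 FPKM. The highest library was less than 2 times the lowest for 31 of 34 genes, and the exceptions were Atf3, Sdf2l1 and Asns. The median coefficient of variation within groups was 10.8% for the 34 genes and 10.9% for all 10732 tested genes.

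**Figure D1:**
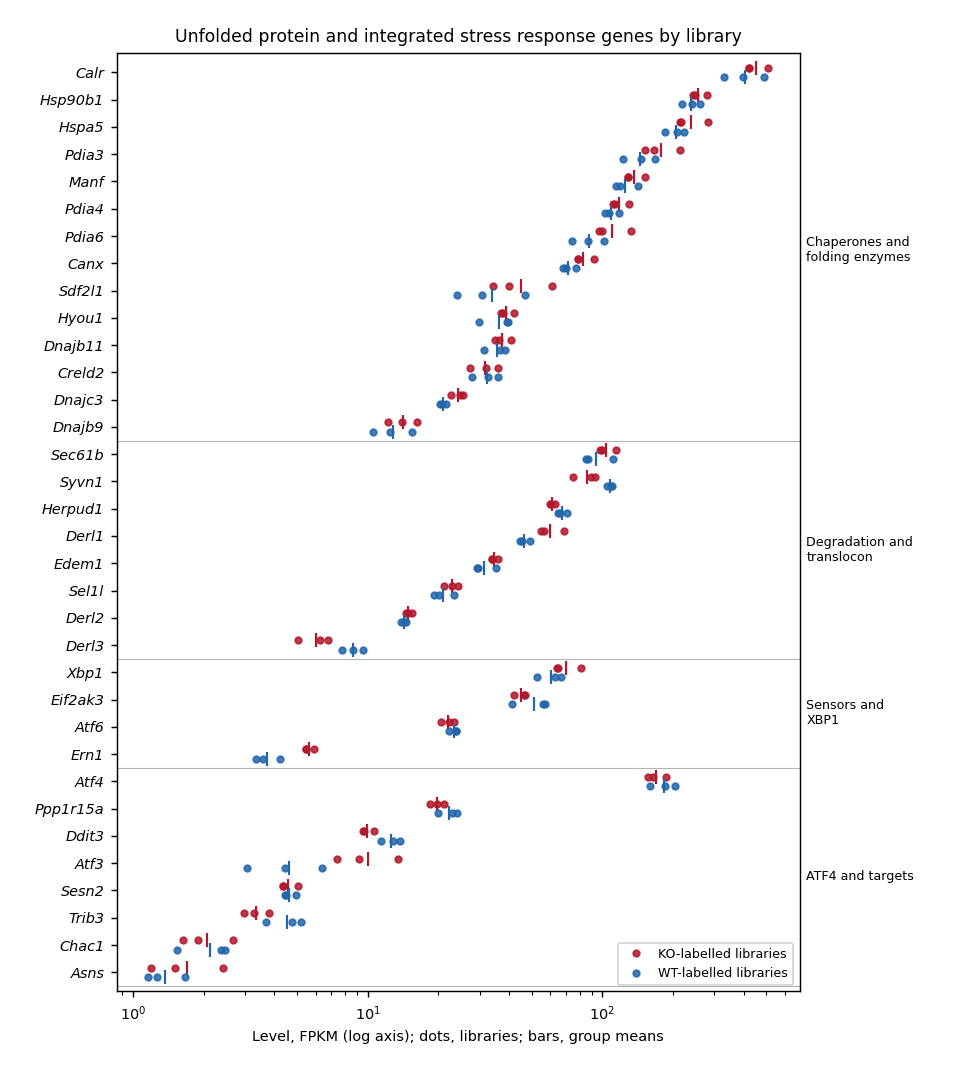
Level of each of the 34 genes in FPKM (log axis) in the 3 KO-labelled (red) and 3 WT-labelled (blue) libraries; dots are libraries and vertical bars are group means. Levels run from about 1 FPKM for Asns to 511 FPKM for Calr, and the Atf3 and Ern1 dots of the 2 groups stand apart.

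KO-labelled and WT-labelled libraries were compared with limma on log2(FPKM + 1) over all tested genes. Of the 34 genes, 0 passed an adjusted p of 0.05 in either direction, where 0.028% of all tested genes passed, all of them higher in KO-labelled libraries. Adjusted p-values of the 34 ran from 0.11 to 0.96. At an unadjusted p under 0.05, 4 of the 34 were higher in KO-labelled libraries (background 8.86%) and 4 were lower (background 8.21%), and voom on recovered reads also called 0. The values of the groups did not overlap for 6 genes that were higher, Atf3, Ern1, Derl1, Canx, Dnajc3 and Derl2. Over all tested genes 24.9% did not overlap in either direction. The 6 genes are 17.6% of the 34, and 9.75% of all tested genes separated in that direction. They did not overlap for 4 that were lower, Derl3, Syvn1, Ddit3 and Herpud1, which is 11.8% of the 34 beside 15.2% of all tested genes. The median log2 difference was 0.12 over the 34 genes and -0.06 over all tested genes, and 22 of the 34 (64.7%) were positive beside 35.4% of all. The count of positive genes ran from 20 to 26 across the scaling alternatives and voom. The median of the 34 was 0.04 without KO-labelled replicate 1 and 0.06 without WT-labelled replicate 3, beside -0.04 and -0.05 over all tested genes.

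**Figure D2:**
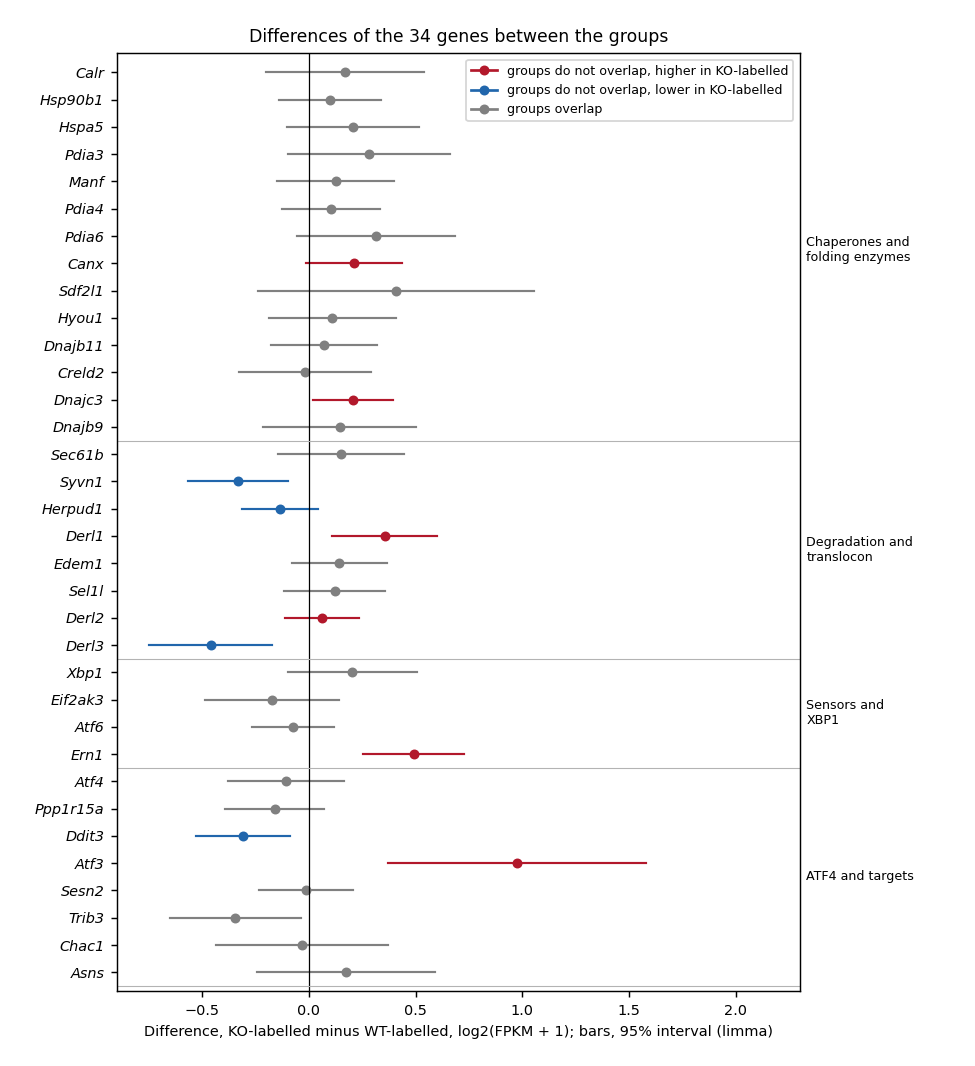
Difference of each gene between KO-labelled and WT-labelled libraries on log2(FPKM + 1), with the 95% interval from limma; colour marks genes whose 3 against 3 values do not overlap, higher (red) or lower (blue). No gene passed the adjusted threshold. Atf3 has the largest difference, 0.98, and Derl3 the lowest, -0.46.

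Of the 14 chaperones and folding enzymes, 13 had a positive difference and Creld2 had a difference of -0.02, with folds of group means from 0.988 to 1.33. None passed the test (limma adjusted p from 0.26 to 0.96), and the count of positive differences was 12 after rescaling to a common total without mitochondrial and ribosomal genes and 14 with median-of-ratios scaling. The lectin chaperone Calr, which holds glycoproteins in the ER lumen, had the highest level of the 34 genes, at 511, 423 and 420.2 FPKM in KO-labelled libraries and 397, 490.3 and 329 FPKM in WT-labelled libraries. The groups overlapped, and the means were 451 ± 51.6 and 405 ± 81.0 FPKM (SD, n = 3 each; log2 difference 0.17, SE 0.16, limma adjusted p = 0.62). The ER member of the HSP90 family, Hsp90b1, which folds Toll-like receptors and integrins, had 279, 247 and 245 FPKM in KO-labelled libraries and 242, 260.2 and 218 FPKM in WT-labelled libraries. Hspa5, which encodes BiP, the HSP70 chaperone that also holds the sensors inactive, had 283, 218 and 214 FPKM in KO-labelled libraries and 208, 222 and 186 FPKM in WT-labelled libraries. KO-labelled replicate 1 alone stood above all WT-labelled libraries in both genes, and the log2 differences were 0.10 (SE 0.10, limma adjusted p = 0.64) for Hsp90b1 and 0.21 (SE 0.13, limma adjusted p = 0.47) for Hspa5. The 95% interval for Hspa5, -0.10 to 0.51, does not reach a doubling.

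The membrane-bound lectin chaperone Canx, partner of Calr, was one of a pair of chaperone genes whose groups did not overlap. It had 91.8, 78.6 and 78.9 FPKM in KO-labelled libraries and 77.2, 69.7 and 67.9 FPKM in WT-labelled libraries. The closest libraries of the groups were 78.6 and 77.2 FPKM, and the log2 difference was 0.21 (SE 0.10, limma adjusted p = 0.32). The other was Dnajc3, a BiP co-chaperone that also restrains eIF2α kinases, with 24.7, 25.6 and 22.8 FPKM in KO-labelled libraries and 21.6, 20.3 and 20.8 FPKM in WT-labelled libraries. Its log2 difference was 0.21 (SE 0.08, unadjusted p = 0.0342, limma adjusted p = 0.26), and the groups of both genes overlapped under that common total. The disulfide isomerases Pdia3, Pdia4 and Pdia6 had folds of 1.22, 1.08 and 1.25, the BiP nucleotide exchange factor Hyou1 a fold of 1.07, and the BiP co-chaperones Dnajb9 and Dnajb11 folds of 1.11 and 1.05. The BiP-binding trophic factor Manf had a fold of 1.09. Sdf2l1, which works with Dnajb11, had the widest range of the group, at 60.9, 39.9 and 34.3 FPKM in KO-labelled libraries and 30.8, 46.9 and 24.1 FPKM in WT-labelled libraries, and the groups overlapped.

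The chaperones shared an order of libraries that crossed the labels. KO-labelled replicate 1 was the highest of the 6 libraries for 13 of 14 chaperone genes, WT-labelled replicate 3 the lowest for 11, and WT-labelled replicate 2 the highest WT-labelled library for 10. The same counts over all tested genes were not made. KO-labelled replicate 1 (-29.0) and WT-labelled replicate 3 (30.6) were also the extremes of principal component 1. This is the main axis of variation over all tested genes, with 63.4% of the variance. WT-labelled replicate 2 (-1.95) was the WT-labelled library nearest the KO-labelled ones there. The order is therefore not shown to be particular to the chaperones. Relative to each gene's mean, the median chaperone stood at 0.24, 0.00 and -0.02 on the log2 scale in KO-labelled replicates 1 to 3 and at -0.07, 0.07 and -0.22 in WT-labelled replicates 1 to 3. The summed level of the macrophage markers was 10528 FPKM in KO-labelled replicate 1 and, within the WT-labelled libraries, 3581 FPKM in replicate 2, 1755 FPKM in replicate 1 and 1262 FPKM in replicate 3. Total FPKM was also highest in KO-labelled replicate 1 (439226) and WT-labelled replicate 2 (439451), beside 391346 to 414931 in the other libraries. After rescaling to a common total without mitochondrial and ribosomal genes, KO-labelled replicate 1 was highest for 8 and WT-labelled replicate 3 lowest for 10 of 14 chaperone genes. The part of the macrophage markers in this order was not tested. Without WT-labelled replicate 2, 10 of 14 chaperone genes separated upward in KO-labelled libraries and 0 passed the test, while 18.4% of all tested genes separated upward and 31.8% downward. The median chaperone difference, 0.16 with all libraries, was 0.06 without KO-labelled replicate 1 and 0.08 without WT-labelled replicate 3, where 11 of 14 were positive.

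**Figure D3:**
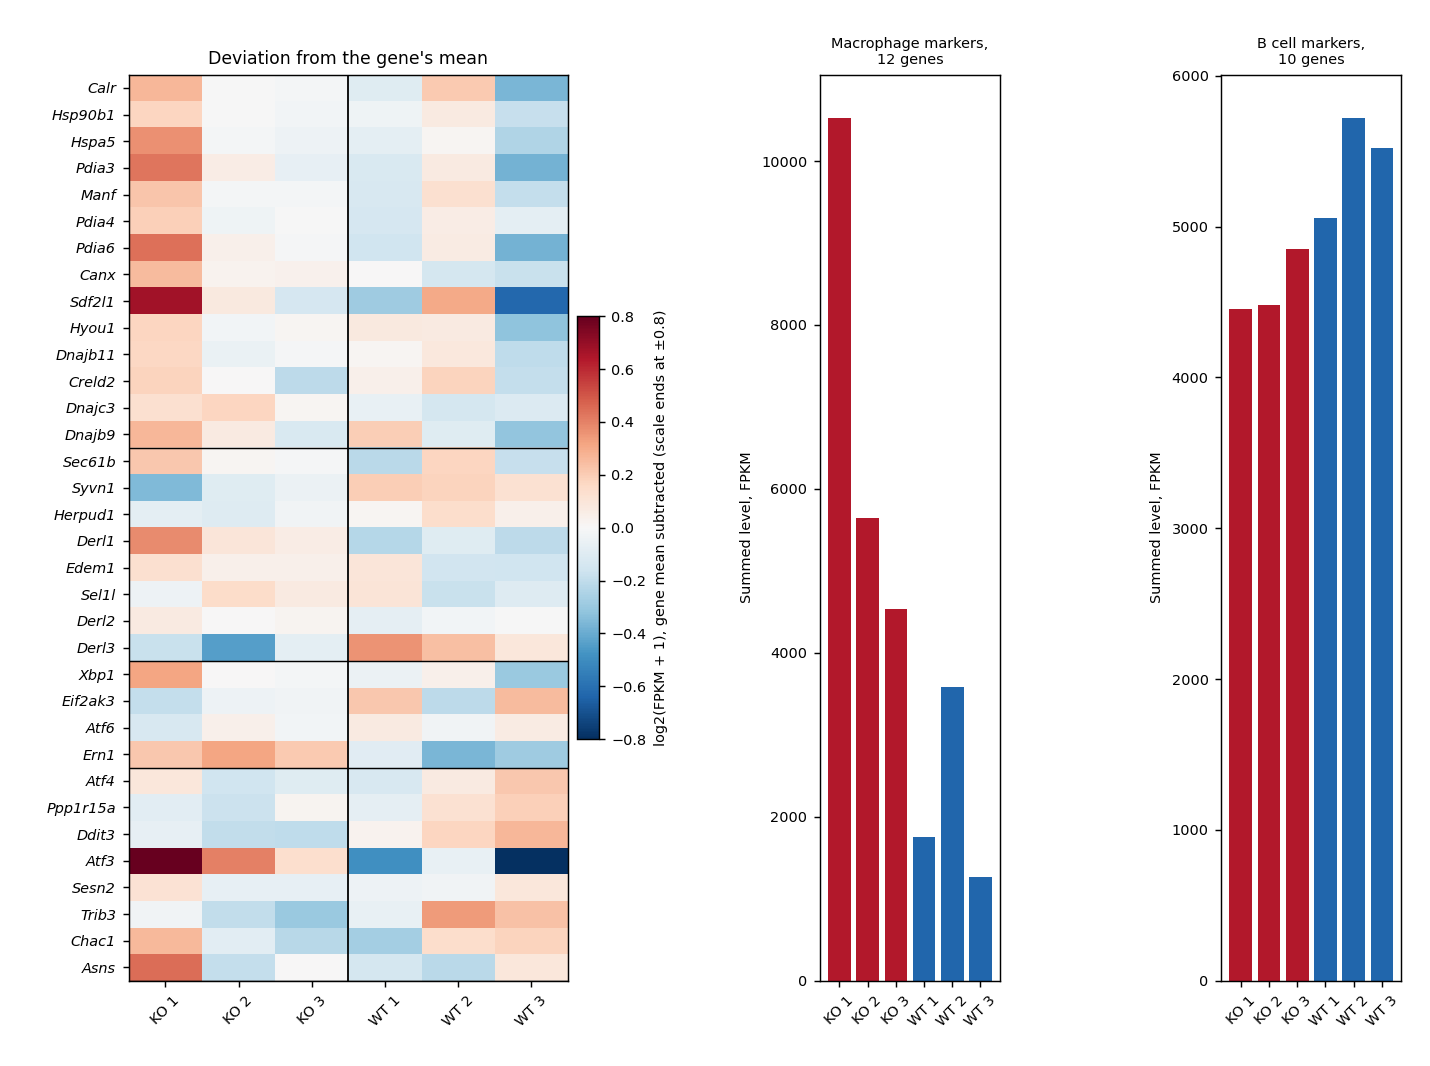
Left, log2(FPKM + 1) of each gene minus its mean over the 6 libraries, KO-labelled left of WT-labelled, with horizontal lines between the 4 role groups; middle and right, summed FPKM of 12 macrophage and 10 B cell markers in the same libraries. KO-labelled replicate 1 is high across the chaperones and has the highest macrophage sum, 10528 FPKM, and WT-labelled replicate 3 is low in both.

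Among the 8 degradation and translocon genes, 2 separated upward and 3 downward in KO-labelled libraries, where 9.75% and 15.2% of all tested genes did. None of the 8 passed the test (limma adjusted p from 0.14 to 0.69). The downward ones belong to the HRD1 complex, which moves misfolded proteins back to the cytosol for ubiquitination. So do the adaptor Sel1l and the derlins Derl1 and Derl2, which had positive differences. The signs within the complex were mixed, and opposite directions are not established, since no gene passed the test. Derl3, a derlin of that channel, had 6.26, 5.04 and 6.78 FPKM in KO-labelled libraries and 9.52, 8.69 and 7.74 FPKM in WT-labelled libraries. Every KO-labelled library lay below every WT-labelled one, with means of 6.03 ± 0.893 and 8.65 ± 0.893 FPKM (SD, n = 3 each; log2 difference -0.46, SE 0.12, unadjusted p = 0.00649, limma adjusted p = 0.14). Syvn1, the HRD1 ubiquitin ligase itself, had 74.9, 89.6 and 92.7 FPKM in KO-labelled libraries and 109.9, 109 and 104 FPKM in WT-labelled libraries (log2 difference -0.33, SE 0.10, limma adjusted p = 0.18). It overlaps Mrpl49 on the opposite strand. Herpud1, the scaffold that joins the ligase and the derlins, had 60.7, 59.7 and 62.9 FPKM in KO-labelled libraries and 64.9, 70.9 and 66.0 FPKM in WT-labelled libraries. The Herpud1 gap was small, 62.9 against 64.9 FPKM at its closest (log2 difference -0.14, SE 0.08, limma adjusted p = 0.41), and with voom on recovered reads the groups overlapped and the difference was -0.06. Derl3 and Syvn1 carry the ERSE and Herpud1 the ERSE-II letters printed above, as do Canx and Dnajc3, which separated upward.

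The other derlins stood higher in KO-labelled libraries. Derl1 had 68.6, 56.4 and 54.9 FPKM in KO-labelled libraries and 44.8, 49.2 and 45.5 FPKM in WT-labelled libraries, with a log2 difference of 0.35 (SE 0.11, unadjusted p = 0.0111, limma adjusted p = 0.17). Derl2 had 15.4, 14.6 and 14.8 FPKM in KO-labelled libraries and 13.8, 14.3 and 14.5 FPKM in WT-labelled libraries, a separation with almost no gap (log2 difference 0.06, SE 0.07, limma adjusted p = 0.69), and its sign turned after rescaling to a common total without mitochondrial and ribosomal genes (-0.01). Within a library, Derl1 was 10.96, 11.19 and 8.09 times the level of Derl3 in KO-labelled libraries and 4.70, 5.67 and 5.88 times in WT-labelled libraries, a ratio formed after the values were seen. Sel1l, the adaptor of the ligase, Edem1, which trims mannose from misfolded glycoproteins, and Sec61b, a subunit of the translocon, overlapped between the groups, with folds of 1.09, 1.10 and 1.10. Summed B cell markers, 4455 to 4849 FPKM in KO-labelled and 5056 to 5722 FPKM in WT-labelled libraries, stood in the direction of Derl3, Syvn1 and Herpud1, as did 6 of 7 tested plasma cell markers and 8 of 8 tested T and NK cell markers, and the macrophage marker sum stood in the direction of Derl1. Their part in these differences was not tested.

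Of the sensors, Ern1, which encodes IRE1α, the kinase and RNase that splices Xbp1, had the lowest p of the 34 genes. It lies at chr11:106394650-106487852 on the minus strand in mm10. It had 5.47, 5.93 and 5.45 FPKM in KO-labelled libraries and 4.24, 3.33 and 3.58 FPKM in WT-labelled libraries. Every KO-labelled library lay above every WT-labelled one, with means of 5.62 ± 0.270 and 3.72 ± 0.469 FPKM (SD, n = 3 each), a fold of 1.51 (log2 difference 0.49, SE 0.10, 95% interval 0.25 to 0.73). The unadjusted p was 0.00159 and the limma adjusted p was 0.11, which did not pass. These values rest on 1361 to 1561 reads in KO-labelled libraries and 866 to 1082 reads in WT-labelled libraries. Its target Xbp1 had 64.3 to 81.0 FPKM in KO-labelled libraries and 52.6 to 66.7 FPKM in WT-labelled libraries, and gene-level values do not show how much of it was spliced. Eif2ak3, which encodes PERK, had 41.9 to 46.9 FPKM in KO-labelled libraries and 41.2 to 57.2 FPKM in WT-labelled libraries, and Atf6 had 20.6 to 23.3 FPKM in KO-labelled libraries and 22.2 to 23.8 FPKM in WT-labelled libraries. The macrophage marker sum differed in the same direction as Ern1 between the groups, but the order within the groups was not shared. WT-labelled replicate 2 had the highest sum of the WT-labelled libraries, 3581 FPKM, and their lowest Ern1 level, 3.33 FPKM. KO-labelled replicate 1 had the highest sum of all, 10528 FPKM, and an Ern1 level between those of the other KO-labelled libraries. The part of the macrophage markers was not tested.

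The 8 genes of the ATF4 branch had differences of both signs, and none passed the test (limma adjusted p from 0.14 to 0.95). Atf4 itself had 186, 157 and 164 FPKM in KO-labelled libraries and 160.5, 185 and 204 FPKM in WT-labelled libraries, and the groups overlapped (log2 difference -0.11, SE 0.12, limma adjusted p = 0.66). Atf3, a repressor of inflammatory transcription in macrophages, had 13.5, 9.15 and 7.41 FPKM in KO-labelled libraries and 4.44, 6.36 and 3.07 FPKM in WT-labelled libraries. All KO-labelled libraries were above all WT-labelled ones, with means of 10.02 ± 3.14 and 4.62 ± 1.65 FPKM (SD, n = 3 each), a fold of 2.17 and the largest difference of the 34 genes (log2 difference 0.98, SE 0.26, limma adjusted p = 0.14). Ddit3, which encodes CHOP, the factor that promotes death after prolonged stress, had 10.7, 9.67 and 9.60 FPKM in KO-labelled libraries and 11.4, 12.8 and 13.7 FPKM in WT-labelled libraries. Here all KO-labelled libraries were below all WT-labelled ones (log2 difference -0.31, SE 0.09, limma adjusted p = 0.18), the groups overlapped with voom on recovered reads, and the gene overlaps Mars on the opposite strand. Trib3, a pseudokinase induced by CHOP, had 3.79, 3.26 and 2.98 FPKM in KO-labelled libraries and 3.69, 5.18 and 4.75 FPKM in WT-labelled libraries, with 1 overlapping pair (log2 difference -0.35, SE 0.13, limma adjusted p = 0.25).

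The eIF2α phosphatase subunit gene Ppp1r15a (GADD34) had a fold of 0.889 and the amino acid and growth regulator Sesn2 a fold of 0.990. The glutathione-degrading enzyme gene Chac1 had a fold of 0.969, and Asns, asparagine synthetase, a fold of 1.25, and the groups of all 4 genes overlapped. Chac1 rests on 91 to 161 reads in KO-labelled libraries and 88 to 138 reads in WT-labelled libraries, and Asns on 153 to 315 and 146 to 198 reads. WT-labelled replicate 3 had the highest level of Atf4, Ppp1r15a and Ddit3 and the lowest of Atf3. Atf3 followed the order of the macrophage markers within each group, highest in KO-labelled replicate 1 and WT-labelled replicate 2, and their part in its difference was not tested. Without WT-labelled replicate 2, Atf3 passed the test (limma adjusted p = 0.038), as did 4.66% of all tested genes in that direction, and it did not pass under any other setting tried (adjusted p from 0.095 to 0.42).

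**Figure D4:**
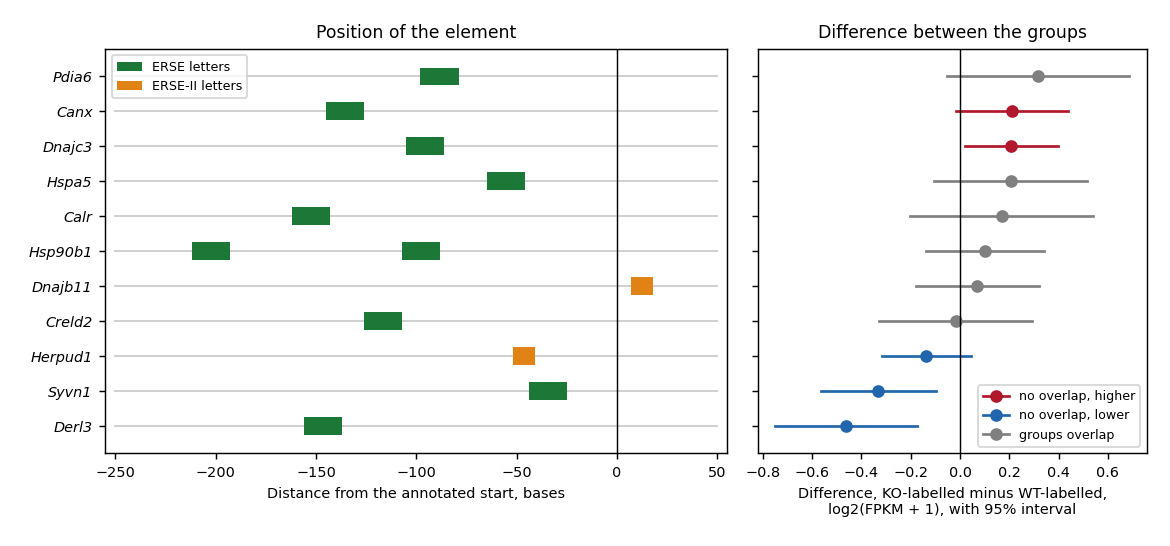
Left, position of the ERSE (green) and ERSE-II (orange) letters relative to the annotated start, in bases, for the genes that carry them; right, the difference of the same genes between KO-labelled and WT-labelled libraries on log2(FPKM + 1) with its 95% interval. Of the 9 ERSE genes, Canx and Dnajc3 separated upward and Derl3 and Syvn1 downward, and none passed the test. Over all tested genes 9.75% separated upward and 15.2% downward.

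Read by promoter, 6 of the 9 ERSE genes had a positive difference and 3, Creld2, Syvn1 and Derl3, a negative one, with a median log2 difference of 0.17. Over all tested genes 35.4% were positive and the median was -0.06. The ERSE letters begin 145 bases before the start of Canx and 156 bases before that of Derl3, and these genes separated in opposite directions. Neither passed the test (limma adjusted p = 0.32 and 0.14), and the Canx groups overlapped with a common total without mitochondrial and ribosomal genes.

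Of 121 further genes of the same pathways, 119 were listed and 109 tested. Of these, 0 passed the adjusted test and 13 were higher (11.9%, beside 8.86% of all tested genes) and 4 lower (3.67%, beside 8.21%) in KO-labelled libraries at an unadjusted p under 0.05 (limma), and voom on recovered reads also called 0. The groups did not overlap for 15 higher (13.8%) and 10 lower genes (9.17%), beside 9.75% and 15.2% of all tested genes. The separation upward covered 5 of 19 further folding genes and 5 of 31 further degradation, translocon and export genes, beside 0 and 1 downward. Further sensors, regulators and eIF2 subunits had 1 of 26 upward and 4 downward, and further ATF4 and CHOP targets 4 of 33 upward and 5 downward.

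Among these further genes whose groups did not overlap, the 8 with the largest absolute moderated t are given here, so their lack of overlap is part of the choice. P4hb, the main disulfide isomerase, had 214, 166 and 155 FPKM in KO-labelled libraries and 114, 138 and 88.5 FPKM in WT-labelled libraries (log2 difference 0.65, SE 0.19, limma adjusted p = 0.16). Its relative Pdia5 had 5.13, 2.93 and 1.91 FPKM in KO-labelled libraries and 0.883, 1.30 and 0.365 FPKM in WT-labelled libraries. The cargo receptor gene Lman1 had 23.8, 19.7 and 17.7 FPKM in KO-labelled libraries and 14.8, 14.4 and 13.7 FPKM in WT-labelled libraries. Among factors tied to ATF4 and CHOP, the myeloid transcription factor Cebpb averaged 108 ± 35.5 and 38.0 ± 21.5 FPKM and the stress-induced regulator Nupr1 26.7 ± 10.3 and 9.09 ± 6.56 FPKM in KO-labelled and WT-labelled libraries (SD, n = 3 each). The cell cycle inhibitor gene Cdkn1a averaged 23.0 ± 4.87 and 10.98 ± 4.44 FPKM and the cystine transporter gene Slc7a11 9.64 ± 2.71 and 3.90 ± 2.00 FPKM in KO-labelled and WT-labelled libraries. The glutamine transporter gene Slc1a5 stood lower, at 100.2 ± 4.47 FPKM in KO-labelled and 123 ± 6.17 FPKM in WT-labelled libraries. Adjusted p-values of the 8 ran from 0.13 to 0.17 (limma). As with Atf3, KO-labelled replicate 1 was the highest library for Cebpb, Nupr1, Cdkn1a, P4hb, Pdia5 and Lman1, and it also had the highest macrophage marker sum, whose part was not tested.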

How the data were processed

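The authors deposited FPKM per gene symbol, 1 table per library, per the file headers. Per the submitters' processing notes the build named is mm10. Aligner, counter and use of strand: not given in the sources used here. It is therefore not known whether reads of opposite-strand neighbours, such as Mars at Ddit3, Mrpl49 at Syvn1 and Mis12 at Derl2, were counted apart from those of the gene. Genes averaging at least 1 FPKM (10732) were tested on log2(FPKM + 1), unscaled, by limma version 3.58.1 under R version 4.3.3 (moderated test with an intensity trend, two-sided, Benjamini-Hochberg at 0.05 over all tested genes). Groups came from sample titles. Levels are whole multiples of 1 read for 99.99% of genes (tolerance 0.002 reads), which gave reads and their depth. In tests on simulated data with the spreads of these 10732 genes, 44% of 200 genes changed 1.5-fold and 84.5% of 200 changed 2-fold were recovered, so differences of the size seen here are often not detectable. The rule for full values took groups that do not overlap, the 4 highest levels, and 8 further pathway genes. Those 8 had the largest absolute moderated t among the further genes whose groups did not overlap. The 34 genes, the further lists and this rule were chosen with earlier results of these data known. Gene positions and overlaps came from GENCODE M21. Other steps used Python 3.11.15 with pandas 2.3.3.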

Additional observations from a re-analysis of the deposited data

How the results depend on the processing

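Among all tested genes, 3 were called higher in KO-labelled libraries. The count was 6 with a pseudocount of 5 and 6 with a common total without mitochondrial and ribosomal genes, 5 with voom on recovered reads, 0 with no filter and 11 with the replicate number as a block, and it ran from 0 to 500 when 1 library was left out. The count lower ran from 0 to 38. The 500 and 38 came without WT-labelled replicate 2, the only setting that called any of the 34 genes (1, Atf3) or of the further pathway genes (5). Leaving out 1 library gave 0 to 1 of the 34 and 0 to 5 further genes. The number of the 34 that separated upward was 6, and 3 with the common total (Atf3, Derl1 and Ern1, beside 5 downward), and 6 to 16 when 1 library was left out. Downward it was 4, and 2 with voom, where Ddit3 and Herpud1 overlapped. The median difference of the 34 ran from 0.04 to 0.20, and leaving out KO-labelled replicate 1 or WT-labelled replicate 3 gave 0.04 and 0.06. Same-numbered libraries had correlations of their deviations of -0.21, -0.38 and 0.27, so the labels and these values do not establish a pairing, a shared batch was not tested, and the block called 0 of the 34.

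Signs turned for 8 genes, with differences from -0.07 (Atf6) to 0.18 (Asns) in the main comparison. With the common total, Dnajb11 was at -0.0063 and Derl2 at -0.010. With median-of-ratios scaling, Creld2 was at 0.043, Chac1 at 0.013 and Sesn2 at 0.039, and with voom Creld2 was at 0.061, Atf6 at 0.0015, Chac1 at 0.036 and Sesn2 at 0.064. When 1 library was left out, Hyou1 ran from -0.022 to 0.18, Dnajb11 from -0.015 to 0.13, Creld2 from -0.12 to 0.081, Chac1 from -0.17 to 0.071, Asns from -0.0039 to 0.31 and Sesn2 from -0.074 to 0.027. In the main comparison each of these 8 differences was smaller than its SE. The cause of the turns was not tested. Chac1 and Asns hold the fewest reads, while Hyou1, Atf6 and Dnajb11 hold at least 3534 reads in every library.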

Other observations

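Outside the 34 genes, 6 tested genes carried the ERSE letters in the same promoter window. All 6, Adcy3, Alg12, Ero1b, Hnrnpa3, Pan2 and Xlr3b, had a negative difference, with a median log2 difference of -0.22, 3 of them had groups that did not overlap, and none passed the test (limma). Over all tested genes 35.4% had a positive difference and 15.2% separated downward. This set was looked at after the values of the 34 genes were seen and is given as a description. Ero1b, an oxidase that recharges the disulfide isomerases, had 49.5, 57.7 and 61.4 FPKM in KO-labelled libraries and 71.4, 58.1 and 65.5 FPKM in WT-labelled libraries, and the groups overlapped.

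The cytosolic heat shock genes, which answer unfolded proteins outside the ER, gave no separation between the groups. Of 12 genes, 11 were tested, 0 had groups that did not overlap, 1 had a positive difference, and their summed level was 1256 to 1313 FPKM in KO-labelled libraries and 1211 to 1457 FPKM in WT-labelled libraries (limma, 0 at an unadjusted p under 0.05). Over all tested genes 24.9% did not overlap in either direction and 35.4% had a positive difference. At an unadjusted p under 0.05 (limma), 8.86% of all tested genes were higher and 8.21% lower in KO-labelled libraries.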
